A study of Solanum lycopersicum with 8 samples.

Results

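The genes described here are 36 nuclear tomato genes of photosynthesis, chosen by a fixed list of gene IDs under the headings chlorophyll a/b binding proteins (27 IDs), RuBisCO small subunit (3), RuBisCO activase (2) and photosystem subunits (4). Of these, 34 had a row among the 34109 genes of the expression table, and Solyc03g005790 and Solyc05g056070 had none. RNA came from inflorescence meristems of tomato plants 8 weeks old in 2 genotypes, each with 4 libraries. The paper's figure of *EJ2*, *J2*, *PLT3* and *PLT7* levels in these mutants gives 4 *ej2* *j2* but 2 *plt3* *plt7* samples, and all libraries were used here. In *ej2* *j2* both *SEPALLATA* MADS-box paralogues *EJ2* and *J2* are mutated, and in *plt3* *plt7*, made by CRISPR–Cas9 in cultivar M82, both *PLETHORA* paralogues *PLT3* and *PLT7* are mutated. The labels name no allele and do not say which plant gave which library, no wild-type library was analysed here, and the meristems of both genotypes were sampled while proliferating. Levels are in TPM, a unit that divides reads by transcript length and scales each library to the same sum, so levels can be compared between genes.

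Chlorophyll a/b binding proteins form the antenna that gathers light and passes its energy to photosystems I and II, whose other subunits split water and carry electrons. RuBisCO fixes carbon dioxide with a large subunit encoded in the plastid and a small subunit encoded in the nucleus, and RuBisCO activase frees its active sites of bound sugar phosphates. Transcripts of these nuclear genes are among the most abundant of green leaves, while the plastids of shoot meristems are immature. The class of each ID is a label from general knowledge, since RefSeq's gene table (assembly SLM_r2.1) has 0 IDs of this kind. In it, 31 of 36 IDs share a chromosome with a gene named for their class (0 of 2 for RuBisCO activase), a weak check. It names 4 *Cab-1* genes on chromosome 2 and 2 *Cab-3* loci on chromosome 3, both of them families of chlorophyll a/b binding proteins, and *RBCS* genes, for the RuBisCO small subunit, on both chromosomes. The IDs Solyc02g070940 to Solyc02g071030 and Solyc03g005760 to Solyc03g005790 form blocks of neighbours on these 2 chromosomes. The sources used here do not give how reads shared by near-identical copies were divided, or whether they were counted. Levels of single block members are therefore uncertain, and sums over the list may be too low.

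Photosynthesis transcripts made up a small share of every library, and the 2 genotypes overlapped in this share. The summed level of the 34 genes was 1478, 2724, 2142 and 1793 TPM in *ej2* *j2* replicates 1 to 4 (mean 2034 ± 534, SD, n = 4). It was 3089.5, 1410.2, 1572 and 2103 TPM in *plt3* *plt7* replicates 1 to 4 (mean 2044 ± 757, SD, n = 4). The highest and the lowest sums were both in *plt3* *plt7*, 2.19-fold apart, and the list took between 0.141% and 0.309% of all TPM. The log2 ratio of the mean sums, *plt3* *plt7* over *ej2* *j2*, was 0.01, and -0.26 without *plt3* *plt7* replicate 1, the highest library. In bulk tissue, fewer green cells and less of these RNAs per cell cannot be told apart.

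**Figure D1:**
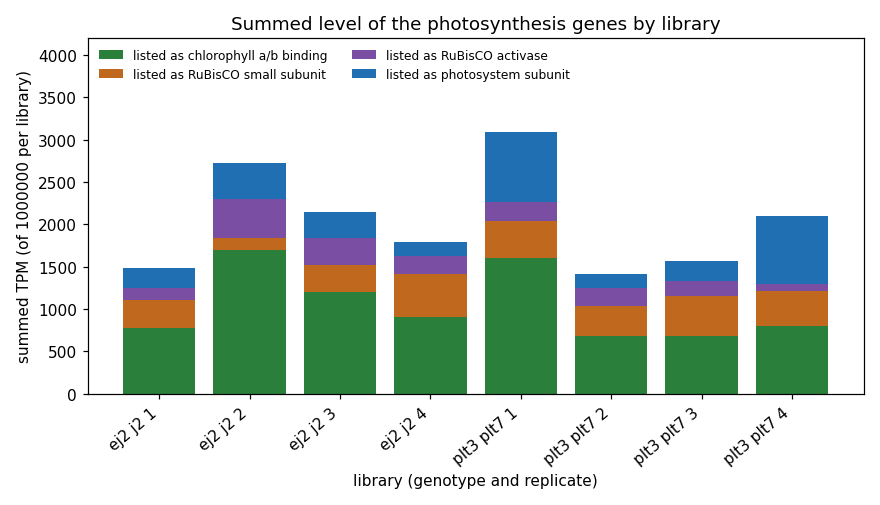
Summed TPM of the 34 photosynthesis genes with a row (vertical axis) in each of the 8 libraries, stacked by the class under which the IDs are listed. Sums run from 1478 to 2724 TPM in *ej2* *j2* and from 1410.2 to 3089.5 TPM in *plt3* *plt7*, and the part listed as photosystem subunits is large in *plt3* *plt7* replicates 1 and 4.

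A few genes carried most of this sum, and they were not the same ones in each library. The 5 highest genes held between 60.9% and 79.5% of the sum. Solyc03g034220.3, listed as RuBisCO small subunit, was the highest gene in 4 libraries, and in the others this was Solyc12g011450.2 (*ej2* *j2* replicate 2), Solyc03g005760.1 (*ej2* *j2* replicate 3), Solyc07g047850.3 (*plt3* *plt7* replicate 1) and Solyc07g044860.3 (*plt3* *plt7* replicate 4). By mean level over the 8 libraries, 9 genes lay between 102 and 335 TPM, 9 between 10.5 and 74.7 TPM, 8 from 1 to 10 TPM and 8 under 1 TPM. The last 8 included Solyc02g071030.2, listed at 0 in every library, and Solyc06g069000.3, above 0 only in *ej2* *j2* replicate 1, at 0.0855 TPM.

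**Figure D2:**
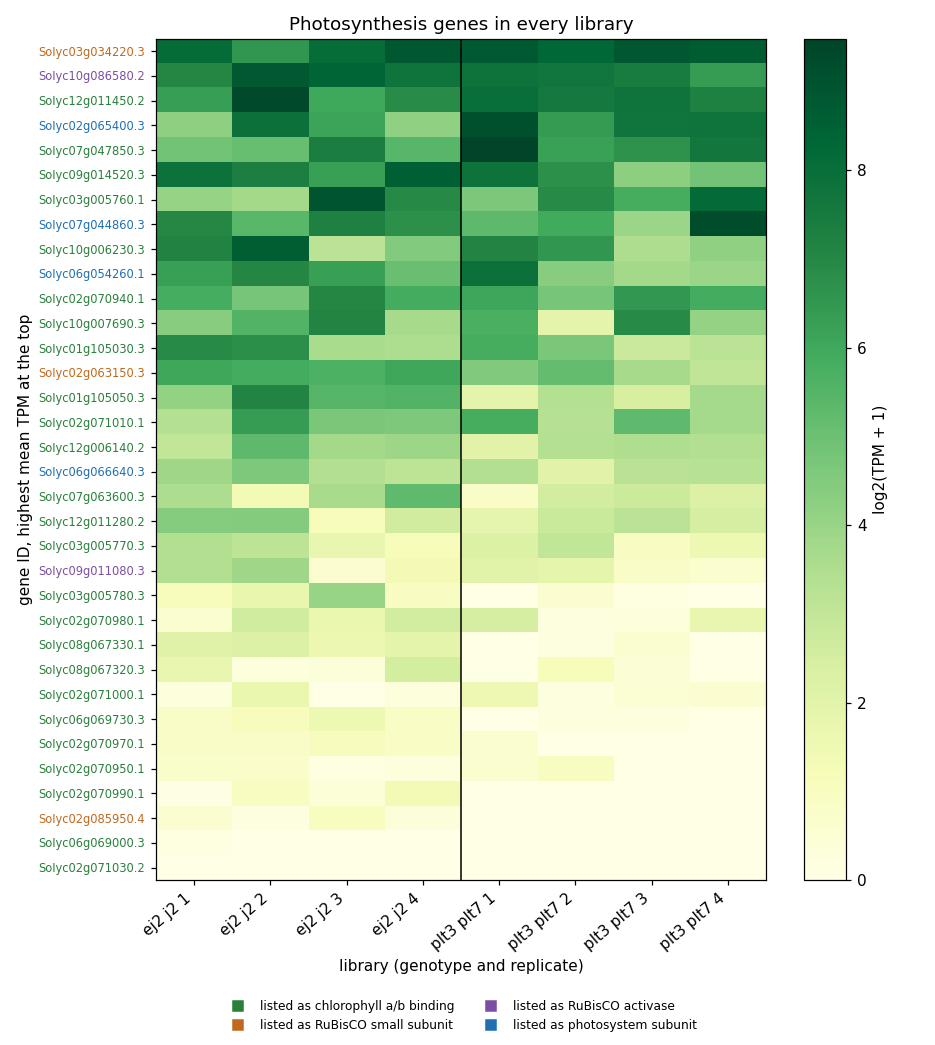
Level of each of the 34 genes (rows, highest mean at the top, ID coloured by listed class) in each of the 8 libraries (columns, *ej2* *j2* left of the line) as log2(TPM + 1). The dark cells near the top lie in different libraries for different genes, and the lowest row is at 0 in every library.

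Within the 8 neighbouring IDs of chromosome 2, all listed as chlorophyll a/b binding, 2 genes stood above the rest. Solyc02g070940.1 was at 55.8, 26.2, 128.8 and 58.0 TPM in *ej2* *j2* and at 65.0, 26.3, 89.4 and 57.6 TPM in *plt3* *plt7*, so the *plt3* *plt7* libraries lay within the range of the *ej2* *j2* ones. Its log2 difference, given throughout as *plt3* *plt7* minus *ej2* *j2* on log2(TPM + 1), was -0.08 (standard error 0.91, adjusted p = 0.986, limma), and its sign turned without *ej2* *j2* replicate 3 (0.30) or *plt3* *plt7* replicate 2 (0.26). The next, Solyc02g071010.1, ran from 9.30 to 81.3 TPM in *ej2* *j2* and from 9.02 to 54.0 TPM in *plt3* *plt7*. The remaining 6 IDs of the block never exceeded 5.04 TPM. Among them Solyc02g070990.1 was at 0.0580, 0.997, 0.270 and 1.53 TPM in *ej2* *j2*, and every library of *plt3* *plt7* listed it at 0. Solyc02g070970.1 was at 0.799, 0.778, 1.10 and 0.831 TPM in *ej2* *j2*, and at 0.514 TPM in *plt3* *plt7* replicate 1 and listed at 0 in its other libraries. Both were without overlap between the genotypes, at means too low to be tested.

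In the block on chromosome 3, the highest gene also had the widest spread among libraries. Solyc03g005760.1 was at 15.8, 12.4, 495.6 and 121.1 TPM in *ej2* *j2* and at 24.0, 118.6, 55.0 and 285.8 TPM in *plt3* *plt7*. It was thus 39.9-fold higher in *ej2* *j2* replicate 3 than in replicate 2 of the same genotype, and the genotypes overlapped. Its log2 difference was 0.45 (standard error 0.92, adjusted p = 0.901, limma) and its sign turned without *ej2* *j2* replicate 1 (-0.17) or replicate 2 (-0.27) or without *plt3* *plt7* replicate 4 (-0.14). Solyc03g005780.3 was at 1.27, 2.39, 15.1 and 0.855 TPM in *ej2* *j2* and at 0, 0.486, 0.0891 and 0 TPM in *plt3* *plt7*, with every *plt3* *plt7* library lower. It passed the filter on a mean of 1 TPM only through *ej2* *j2*, and not without replicate 3 of that genotype, so its tests are partly fixed by that filter. Its log2 difference was -1.79 (standard error 0.58, adjusted p = 0.0781, limma). In an exact permutation test over libraries, two-sided, p was 0.0286, the lowest possible with 4 against 4. Every tested gene without overlap gets this p, so here and below it adds nothing to the lack of overlap. Solyc03g005770.3, the third row of the block, lay between 0.924 and 9.53 TPM and overlapped between genotypes.

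The smaller groups of neighbours on chromosomes 8 and 1 each held a gene with all *plt3* *plt7* libraries below all *ej2* *j2* libraries. On chromosome 8, Solyc08g067330.1 was at 3.31, 3.73, 2.03 and 2.80 TPM in *ej2* *j2* and at 0, 0.123, 0.587 and 0 TPM in *plt3* *plt7*. The groups did not overlap, at levels of a few TPM in *ej2* *j2*, through which alone the gene passed the filter on a mean of 1 TPM, so its low level in *plt3* *plt7* was partly fixed by that filter (log2 difference -1.76, standard error 0.58, adjusted p = 0.0820, limma, with an exact permutation p = 0.0286). With a pseudocount of 0.1 in place of 1 the difference was -3.92 and passed (adjusted p = 0.0386, range over the alternatives 0.0386 to 0.293, limma). Its neighbour Solyc08g067320.3 ran from 0 to 4.62 TPM, with overlap.

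On chromosome 1, Solyc01g105050.3 had the lowest difference of the list. It was at 16.4, 139.3, 42.8 and 45.2 TPM in *ej2* *j2*, with a mean of 60.9 ± 53.9 (SD, n = 4), and at 2.78, 9.24, 4.25 and 12.1 TPM in *plt3* *plt7* (mean 7.09 ± 4.34, SD, n = 4). Every *plt3* *plt7* library was lower than every *ej2* *j2* library, yet the log2 difference of -2.71 did not pass (standard error 0.89, adjusted p = 0.0830, limma). The exact permutation p of 0.0286 follows from the lack of overlap. Its neighbour Solyc01g105030.3 was at 120.3, 108, 11.2 and 10.5 TPM in *ej2* *j2* and at 55.1, 25.0, 5.75 and 7.88 TPM in *plt3* *plt7*. Here the 2 genotypes overlapped (log2 difference -1.10, standard error 0.90, adjusted p = 0.658, limma), and the difference ran from -0.53 without *ej2* *j2* replicate 1 to -1.67 without *plt3* *plt7* replicate 1.

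Of the other IDs listed as chlorophyll a/b binding, single genes on chromosomes 12, 7 and 9 had the highest means. In *ej2* *j2*, Solyc12g011450.2 had levels of 76.3, 612.9, 62.6 and 117.0 TPM, and in *plt3* *plt7* of 249, 189, 215 and 146 TPM. Its *ej2* *j2* replicates 1, 3 and 4 lay below all *plt3* *plt7* libraries and replicate 2 above them (log2 difference 0.52, standard error 0.92, adjusted p = 0.880, limma). Without replicate 2 the difference was 1.24, and without *ej2* *j2* replicates 1 and 3 it was 0.24 and 0.15. Solyc07g047850.3 was at 27.3, 33.5, 162 and 42.2 TPM in *ej2* *j2* and at 714.5, 73.5, 100.6 and 195 TPM in *plt3* *plt7*. All but 1 of its *ej2* *j2* libraries lay below the *plt3* *plt7* libraries (log2 difference 1.82, standard error 0.91, adjusted p = 0.354, limma, with an exact permutation p = 0.0857), and the difference was 1.16 without *plt3* *plt7* replicate 1. Solyc09g014520.3 was at 230.3, 159.8, 75.1 and 378 TPM in *ej2* *j2* and at 223, 106, 18.6 and 27.4 TPM in *plt3* *plt7*, with overlap (log2 difference -1.58, standard error 0.92, adjusted p = 0.453, limma), and a difference of -1.04 without *plt3* *plt7* replicate 3. Solyc06g069730.3, on chromosome 6, was at 0.789, 1.14, 2.00 and 0.828 TPM in *ej2* *j2* and at 0, 0.165, 0.157 and 0 TPM in *plt3* *plt7*, again without overlap and untested for its low mean. Over this class, 18 of 25 genes with a row were tested, and none passed, where 1.84% of all genes tested did. Their median log2 difference was -0.64.

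The 3 IDs listed as RuBisCO small subunit differed in level by orders of magnitude, and the 2 that were tested had differences of opposite sign, neither past the threshold. Solyc03g034220.3, the gene with the highest mean of the whole list, was at 272, 91.3, 264 and 448 TPM in *ej2* *j2*, with a mean of 269 ± 146 (SD, n = 4), and at 417, 321, 461 and 405 TPM in *plt3* *plt7* (mean 401 ± 58.5, SD, n = 4). The lowest 3 libraries were of *ej2* *j2*, whose replicate 4 lay within the range of *plt3* *plt7* (log2 difference 0.77, standard error 0.92, adjusted p = 0.798, limma), and the difference was 0.32 without *ej2* *j2* replicate 2. Solyc02g063150.3 was at 63.5, 58.2, 49.0 and 64.2 TPM in *ej2* *j2* and at 22.1, 34.7, 11.9 and 7.02 TPM in *plt3* *plt7*. It was lower in every *plt3* *plt7* library and even among the *ej2* *j2* ones (log2 difference -1.80, standard error 0.90, adjusted p = 0.349, limma, with an exact permutation p = 0.0286). In *ej2* *j2*, Solyc02g085950.4 had levels of 0.460, 0.117, 1.05 and 0.243 TPM, and it was listed at 0 throughout *plt3* *plt7*. The sum of this class was 328 ± 148 TPM in *ej2* *j2* and 420.0 ± 49.5 TPM in *plt3* *plt7* (SD, n = 4), and most of it was the 1 gene on chromosome 3.

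Both IDs listed as RuBisCO activase had lower means in *plt3* *plt7*, within the spread between libraries. In *ej2* *j2*, Solyc10g086580.2 had levels of 128.8, 438, 324 and 214 TPM, and in *plt3* *plt7* of 222, 205, 171 and 80.5 TPM. The genotypes overlapped (log2 difference -0.65, standard error 0.91, adjusted p = 0.840, limma), and the difference was -0.39 without *ej2* *j2* replicate 2 and -0.33 without *plt3* *plt7* replicate 4. Solyc09g011080.3 ran from 0.480 to 13.7 TPM over the libraries, so nearly all of the class came from the other gene.

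The 4 IDs listed as photosystem subunits had the highest difference of the list as well as differences below 0. Solyc02g065400.3 was at 17.7, 238, 68.2 and 17.3 TPM in *ej2* *j2* and at 541, 82.3, 212 and 217 TPM in *plt3* *plt7*. Only replicate 2 of *ej2* *j2* lay within the range of *plt3* *plt7*, and the others below it, and the log2 difference of 2.13 did not pass (standard error 0.92, adjusted p = 0.246, limma, with an exact permutation p = 0.114). In Solyc07g044860.3 and Solyc06g054260.1 a single *plt3* *plt7* library carried most of that genotype's level. The former was at 569.6 TPM in *plt3* *plt7* replicate 4 against at most 59.4 TPM in the other 3, and the latter at 240.6 TPM in replicate 1 against at most 19.8 TPM. Solyc06g066640.3 stayed between 3.10 and 23.6 TPM.

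Across the list, most genes had lower means in *plt3* *plt7* than in *ej2* *j2* on the log2 scale, and no gene passed the test. The 26 whose mean reached 1 TPM were tested in 1 limma fit over 19544 genes with Benjamini-Hochberg adjustment. None of the 26 was called at an adjusted p under 0.05, where 1.84% of all genes tested were called, 0.962% lower and 0.875% higher. At an unadjusted p under 0.05, 2 members were higher and 4 lower, against 7.11% and 6.74% of all genes (13.8% in either direction). Of the 4, Solyc03g005780.3 and Solyc08g067330.1 passed the filter only through *ej2* *j2*, so their low level in *plt3* *plt7* was partly fixed by it. The number higher was 0 without *ej2* *j2* replicate 1, *ej2* *j2* replicate 4 or *plt3* *plt7* replicate 1. It was 1 without *ej2* *j2* replicate 2 or *plt3* *plt7* replicate 4. The number lower was 6 without *plt3* *plt7* replicate 1. It was 3 without *ej2* *j2* replicate 1, 3 or 4 and without *plt3* *plt7* replicate 3 or 4. With a minimum mean of 5 TPM, 1 of 20 members tested was higher and 2 lower. Either rescaling, library weights, a replicate block or a pseudocount of 0.1 left 1 higher and 4 lower. Of the 26 differences, 21 were below 0, against 48.0% of all genes. The median of the 26 was -0.68 and their mean -0.59, whereas the median of all genes was 0.05. The median was -0.45 without *ej2* *j2* replicate 2 and -0.70 without *ej2* *j2* replicate 1. In these libraries 10.7% and 9.16% of all TPM fell on the 10 highest genes. The 5 members with a difference above 0 had mean levels from 141 to 335 TPM and were all among the 7 highest of the list, and the log2 median lay below 0 while the summed TPM were alike. The lowest absolute log2 difference among all called genes was 1.89, and 2 members, at -2.71 and 2.13, exceeded it.

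**Figure D3:**
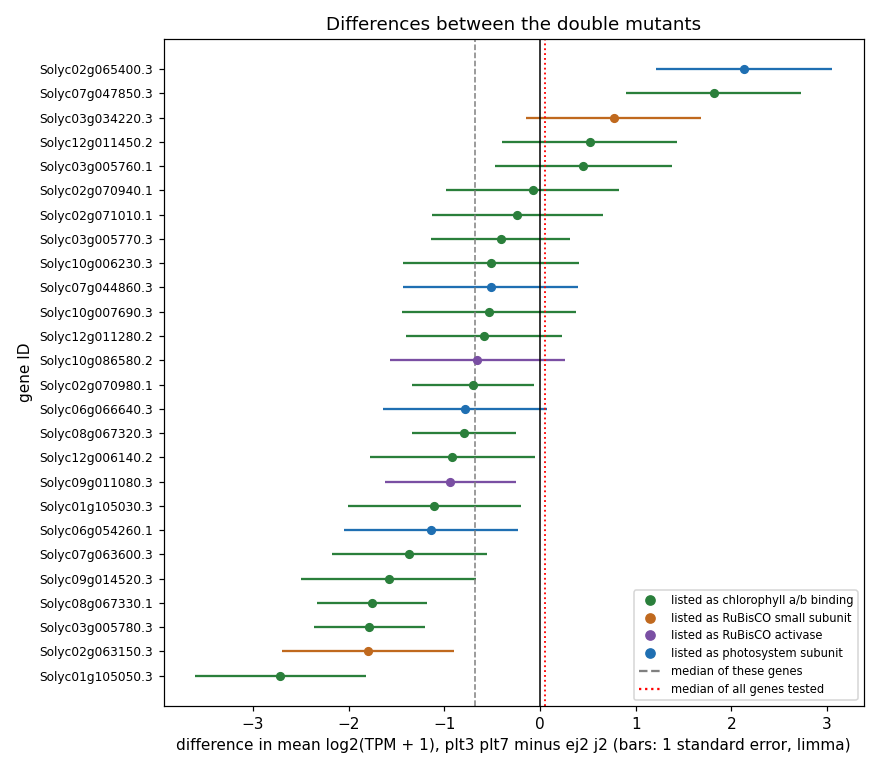
Difference in mean log2(TPM + 1), *plt3* *plt7* minus *ej2* *j2*, for each of the 26 tested genes (points, coloured by listed class), with bars of 1 standard error from limma. Points to the left of 0 number 21, the dashed line is their median of -0.68 and the dotted line the median of all genes tested, 0.05.

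All members without overlap between the genotypes were lower in *plt3* *plt7*. They were 8 of the 33 genes above 0 in any library, while 2.79% of all such genes lay wholly lower and 3.46% wholly higher. Of these 8, 4 had a mean under 1 TPM and 2 more passed the filter only through their *ej2* *j2* libraries, so that a low level in *plt3* *plt7* was in part fixed by the choice of genes. Of the 26 tested members, 4 lay wholly lower and none higher, against 3.00% and 3.87% of all genes tested. Among the 23 members whose mean reached 1 TPM in each genotype, 2 lay wholly lower, Solyc01g105050.3 and Solyc02g063150.3, and none higher, against 2.54% and 3.03% of all such genes. In these 23 the median log2 difference was -0.59, and 18 were below 0. The number of listed genes at 0 was 1, 2, 3 and 2 in the *ej2* *j2* libraries and 8, 5, 6 and 10 in the *plt3* *plt7* libraries, while the number of all genes above 0 overlapped (21397 to 22792 and 21479 to 22295). The number of reads behind these zeros is unknown, since TPM do not keep it.

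The spread among libraries of 1 genotype was wide for single genes, and *ej2* *j2* replicate 2 stood highest for the list by its median gene. The median percentile of the 33 members above 0 in any library, ranked among all such genes, was 73.3 in that library and 44.2 to 61.1 in the other 7. The median log2(TPM + 1) of the 26 tested members was 5.33 there and 3.59 to 5.07 elsewhere, and that of all tested genes was lowest there, at 3.71 against 3.91 to 3.95. Among the 23 tested genes above 0 in all libraries, the highest library exceeded the lowest 20.3-fold in the median gene, from 4.91-fold for Solyc02g070940.1 to 50.6-fold for Solyc10g007690.3. *ej2* *j2* replicate 2 was the highest library for 11 of the 26 tested genes and also the lowest for 3. *plt3* *plt7* replicate 1, with the largest sum, had the lowest median percentile and was the highest for 3 and the lowest for 6. Its median log2(TPM + 1) of the tested members was 4.96, against 3.59 to 3.87 in the other *plt3* *plt7* libraries. The SD within genotypes had a median of 1.14 on the log2 scale, and 16 of the 26 genes exceeded the median SD of all genes of similar mean level (10 bins of equal size). The 2 members of highest mean level were even for their level. These, Solyc03g034220.3 and Solyc10g086580.2, had SDs of 0.70 and 0.71 where the median of their bin was 1.22. In the same bin Solyc12g011450.2 was at 1.08. Solyc07g047850.3, Solyc09g014520.3, Solyc02g065400.3 and Solyc07g044860.3 lay above the median, at 1.30, 1.35, 1.48 and 1.67. Solyc10g006230.3 and Solyc03g005760.1, with 2.15 and 2.05, were the most variable of the list.

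**Figure D4:**
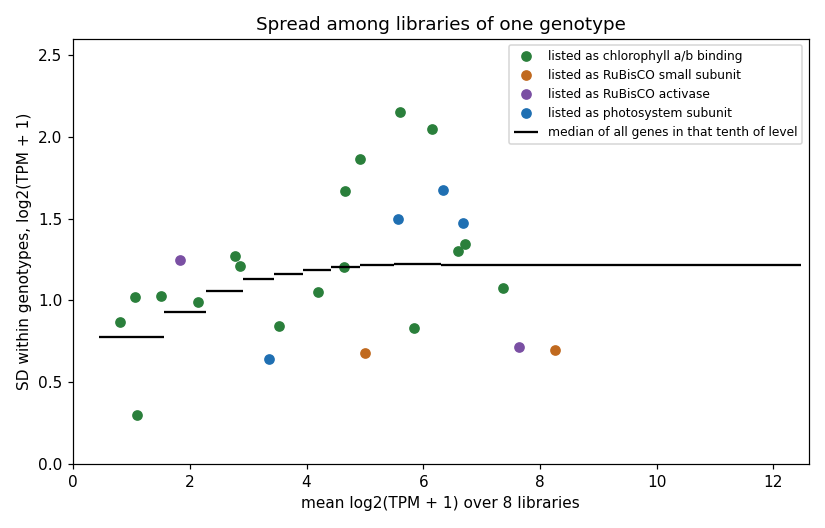
SD of log2(TPM + 1) among libraries within genotypes (vertical axis) against the mean level over 8 libraries (horizontal axis) for the 26 tested genes, coloured by listed class. Black lines give the median SD of all genes in each of 10 bins of level, and the members lie on both sides of them, 16 above.

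Averaged over pairs, the genes' deviations from library to library had a correlation near 0. Over the 325 pairs of tested members, the mean correlation of their deviations from the genotype means was 0.01 over 8 libraries, with 164 pairs above 0 and 161 below, and over all 19544 genes it was 0.00420. These values are a description, since all pairs share the same libraries and the fixed sum of TPM. A few pairs, picked as the extremes of the 325, were tight. Solyc10g006230.3 and Solyc09g011080.3 had r = 0.96, and each had r of 0.94 or more with Solyc01g105030.3, which had r = 0.90 with Solyc03g005770.3. Solyc10g006230.3 was at 142, 388, 7.89 and 21.6 TPM in *ej2* *j2* and at 139.6, 92.1, 10.3 and 17.3 TPM in *plt3* *plt7*. Solyc09g011080.3 was at 9.87, 13.7, 0.480 and 1.46 TPM in *ej2* *j2* and at 3.18, 2.70, 0.803 and 0.547 TPM in *plt3* *plt7*. Like Solyc01g105030.3 and Solyc03g005770.3, both were higher in replicates 1 and 2 than in replicates 3 and 4 of each genotype. Solyc03g005760.1 ran the opposite way, with r = -0.90 against Solyc09g011080.3, and was lowest in *ej2* *j2* replicates 1 and 2. The labels give no day, time or batch for the replicate numbers.

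**Figure D5:**
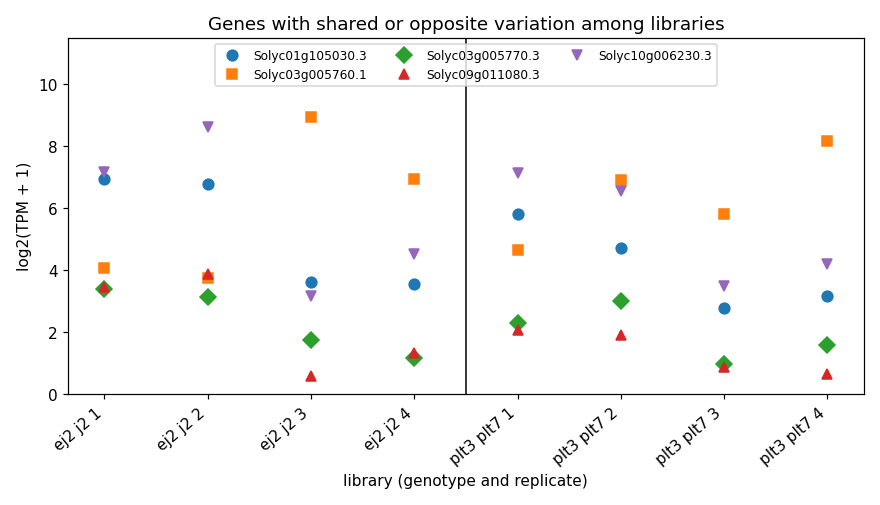
Level as log2(TPM + 1) of 5 genes, chosen for the most extreme pairwise correlations, in each of the 8 libraries (*ej2* *j2* left of the line). Solyc01g105030.3, Solyc03g005770.3, Solyc09g011080.3 and Solyc10g006230.3 are higher in replicates 1 and 2 than in 3 and 4 of both genotypes, and Solyc03g005760.1 is lowest in *ej2* *j2* replicates 1 and 2.

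A second list of 12 IDs, also labelled for plastid and green tissue functions from general knowledge, gave no call either. Of its 11 tested genes none passed in either direction (limma), and 2 had an unadjusted p under 0.05, both lower (6.74% of all genes were). In this list 5 differences were below 0 (48.0% of all genes) and 6 above, and the median was 0.26. Solyc02g079950.3 lay wholly lower in *plt3* *plt7*, 1 of the 11 (3.00% of all genes tested), and none lay wholly higher (3.87%). Its sum ran from 562 to 1099 TPM in *ej2* *j2* and from 624 to 886 TPM in *plt3* *plt7*, and *ej2* *j2* replicate 2, second highest for the photosynthesis genes, was the lowest for this list. A list of 7 IDs labelled for floral organ identity summed to 22.5 to 105 TPM in *ej2* *j2* and 18.6 to 96.9 TPM in *plt3* *plt7*. Of the 7, 6 were at 0 in at least 1 library and 1 in every library. Most of the sum in each library was Solyc02g084630.3. *ej2* *j2* replicate 2 alone was above 0 for Solyc06g059970.4 (2.22 TPM), Solyc07g055920.4 (0.443 TPM) and Solyc04g081000.3 (0.0691 TPM). It was also the highest library for Solyc08g067230.4 (11.3 TPM, at most 0.853 TPM elsewhere) and Solyc02g071730.4 (1.07 TPM, at most 0.403 TPM elsewhere). A list of 7 IDs labelled for meristem functions, all tested, summed to 306 to 1011 TPM in *ej2* *j2* and 93.4 to 692 TPM in *plt3* *plt7*. Of these, 1 was lower in *plt3* *plt7* (adjusted p = 0.0242, limma), where 0.962% of all genes were. This gene, Solyc02g081670.1, passed the filter only through *ej2* *j2*, with all *plt3* *plt7* libraries at 0. The median log2 difference of the meristem list was -1.43, with 5 of 7 below 0 (48.0% of all genes tested). At an unadjusted p under 0.05 (limma) 3 were lower (6.74% of all genes), and 2 were wholly lower (3.00%). Of these 3, Solyc11g071380.1 also passed the filter only through *ej2* *j2*, and 5 of the 7 had a mean of at least 1 TPM in both genotypes. Most photosynthesis genes also had a difference below 0. The sums of both lists overlapped between the genotypes, and the part of these tissues in the photosynthesis values was not tested.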

How the data were processed

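RNA of 8 libraries was treated for removal of ribosomal RNA. The deposited values are TPM: the authors trimmed reads with Trimmomatic, aligned them to the cDNA annotation of tomato genome SL4.0 with STAR 2.6.1 and calculated TPM in R. The sources used here give no strand or multi-mapping setting. Each library sums to 1000000 TPM, so depth is unknown and no counting error can be given. The limma p-values set a difference against a spread between libraries that is taken mostly from all genes of similar level. They depend little on the gene's own spread. Solyc02g063150.3 and Solyc03g005760.1 had SDs within genotypes of 0.68 and 2.05 but standard errors of 0.90 and 0.92. The permutation p-values use only the values of the gene itself.

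Values were analysed as log2(TPM + 1) for genes whose mean reached 1 TPM, using limma 3.58.1 under R 4.3.3 (trended eBayes, two-sided, Benjamini-Hochberg over all genes, threshold 0.05). The prior degrees of freedom were 365 beside 6 residual ones, so standard errors follow genes of similar level. Single genes were also given an exact permutation test over libraries, on the difference in means. Its p is fixed at 0.0286 for a gene without overlap. Tables and figures used Python 3.11.15, pandas 2.3.3, numpy 2.4.6 and matplotlib 3.10.9.

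The members and lists were chosen with earlier results of these data known. Values in every library were given for members called or without overlap, the 6 highest means, the 3 highest and 3 lowest differences and the highest member of each block; others were chosen after their values were seen. Alternatives were 2 pseudocounts, 2 filters, 2 rescalings, library weights, a replicate block, 2 variance settings and leaving out each library.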

Additional observations from a re-analysis of the deposited data

Results flagged for a closer look

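Groups of 4 libraries were examined for 17 named genes and the summed level, in each genotype. Of these 36 groups, 5 held a library far from the other 3 by its gap in TPM, not in log2(TPM + 1). Chance gives about 5% under a normal distribution, which levels in TPM need not follow. Gaps on the log2 scale were not examined, so whether 5 groups exceed chance cannot be decided here. Solyc12g011450.2 was at 612.9 TPM in *ej2* *j2* replicate 2 against 62.6 to 117.0 TPM in the others. *ej2* *j2* replicate 3 stood apart for 3 genes: Solyc07g047850.3 at 162 TPM (others 27.3 to 42.2), Solyc03g005780.3 at 15.1 TPM (others 0.855 to 2.39) and Solyc02g070970.1 at 1.10 TPM (others 0.778 to 0.831). Solyc02g070970.1 was also at 0.514 TPM in *plt3* *plt7* replicate 1 and listed at 0 in the other libraries of that genotype. In such a group any level above 0 stands apart. The summed level of the photosynthesis genes had no such library in either genotype.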

How the results depend on the processing

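No member was called under 9 of the 10 alternatives or without any 1 library (0 to 0), and the exception was a pseudocount of 0.1, with 1 member, Solyc08g067330.1 (log2 difference -3.92). No gene of the second list was called under any of them (0 to 0). The median of the members stayed below 0, from -0.90 to -0.45 over the libraries left out. The log2 ratio of summed TPM (0.01) was -0.10 after median-of-ratios rescaling and ran from -0.26 to 0.18 over the libraries left out, so it has no stable sign. The difference of Solyc02g070940.1 ran from -0.45 to 0.30 and that of Solyc03g005760.1 from -0.27 to 1.46 over the libraries left out. The number of all genes called (359) was 120 with a pseudocount of 5, 11 without a filter on low values, 229 with a minimum mean of 5 TPM and 131 without the intensity trend. It was 138 to 446 over the libraries left out (181, 161 and 220 without *ej2* *j2* replicates 1, 3 and 4, 153 and 138 without *plt3* *plt7* replicates 1 and 4). The replicate block gave 303 genes, no member, no gene of the second list and a median of -0.68. Deviations of same-numbered libraries had correlations from -0.03 to 0.01 over all genes, and the numbers were not taken to pair the libraries.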
